A study of Mus musculus with 272 samples.

Results

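The 9 genes described here make and load small RNAs: Drosha, Dgcr8, Xpo5, Dicer1, Tarbp2, Ago1, Ago2, Ago3 and Ago4. They were chosen by name and all 9 were found among 15771 gene symbols. RNA was measured in mouse oocytes and preimplantation embryos at 8 stages: the germinal vesicle (GV) oocyte, the metaphase II (MII) oocyte, the zygote, the 2-cell (2C), 4-cell (4C) and 8-cell (8C) embryo, the morula and the blastocyst. Transcriptome libraries were made from pools of 20 oocytes or embryos, with n = 4 per stage. Fraction libraries were made from the 10 fractions of sucrose gradients that each held the lysate of about 100 oocytes or embryos, with n = 3 gradients per stage, lettered A to C. The labels give the stage and the kind of library, and nothing on strain, genotype, age or culture. No group carries a treatment that another lacks, beyond the cycloheximide in every lysate and gradient. The design text of the series has the transcriptome pools of a stage drawn from the batch that also gave its gradients, so p-values measure the spread between these samples, which may be technical.

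MicroRNA precursors are cut in the nucleus by the Microprocessor, which pairs the nuclease Drosha with the RNA-binding protein Dgcr8, and are exported by Xpo5 (exportin 5). In the cytoplasm Dicer1, helped by its double-stranded-RNA-binding partner Tarbp2, cuts them again, and an Argonaute protein takes up 1 strand as its guide. Mouse oocytes are known for endogenous siRNAs, which Dicer1 cuts from long double-stranded RNA without the Microprocessor, and for a shorter oocyte form of Dicer1 that starts inside the gene. Of the 4 Argonautes, Ago2 is the one known to slice its targets efficiently. Values per gene symbol cannot tell the forms of Dicer1 apart.

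Levels are given in CPM, reads of a gene relative to its library's total, so they are relative within a library and say nothing on the total RNA of an embryo. Read totals ran from 11.2 to 24.3 M in the transcriptome libraries and from 0.0102 to 43.2 M in those of the fractions, with a median of 0.697 M in fraction 1 and of 14.2 to 24.1 M in fractions 2 to 10. The stage labels were checked against fixed marker lists. The summed level of 8 oocyte markers fell from 20201 ± 1283 CPM (SD, n = 4) in GV oocytes to 9.49 ± 2.69 in blastocysts, that of 6 measured 2-cell markers was 2374 ± 365 in 2C embryos and at most 78.1 elsewhere, and that of 9 morula and blastocyst markers reached 2713 ± 243 in blastocysts. Of 13 cumulus and granulosa cell markers 7 were in the table; Fshr and Inha stayed at or below 2.45 CPM on average at every stage. Cyp19a1 went the other way, with means of 38.0 CPM in GV oocytes, 62.7 in MII oocytes, 53.8 in zygotes, 7.35 in 2C embryos and at most 0.0664 later, so that it was highest in MII oocytes, as Dicer1 and Ago3 were. The summed level of the 7 was highest in 4C embryos, at 203 to 313 CPM, where Nr5a2 alone, which embryos also express, stood at 251 CPM. Their part in the results below was not tested.

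The transcriptome comparison asks how the abundance of these transcripts changed from each stage to the next. A change was called where limma's Benjamini-Hochberg adjusted p over all genes tested was under 0.05 and the log2 change of CPM + 1 was at least 1 in size. All 9 genes passed the filter on low values, so 63 changes were tested over the 7 transitions. Of these 16 were called, 10 higher and 6 lower. They fell on 4 transitions: 3 from GV to MII, 5 from zygote to 2C, 7 from 2C to 4C and 1 from 8C to morula. The share of all genes called at these 4 transitions was 34.5%, 33.9%, 64.8% and 11.9%. None of the 9 was called at the MII to zygote step, where 10.3% of all genes were, at 4C to 8C (2.6%) or at morula to blastocyst (26.8%). At an unadjusted p under 0.05 these 3 transitions held 6, 2 and 3 of the 9 genes, and edgeR on recovered reads called 1, 0 and 0. The 3 of 9 from GV to MII and 7 of 9 from 2C to 4C are near the share of all genes, and the 5 of 9 from zygote to 2C lie above it, a gap that was not tested. Each library pooled whole oocytes or embryos, so fewer cells with a transcript and less of it per cell cannot be told apart.

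**Figure D1:**
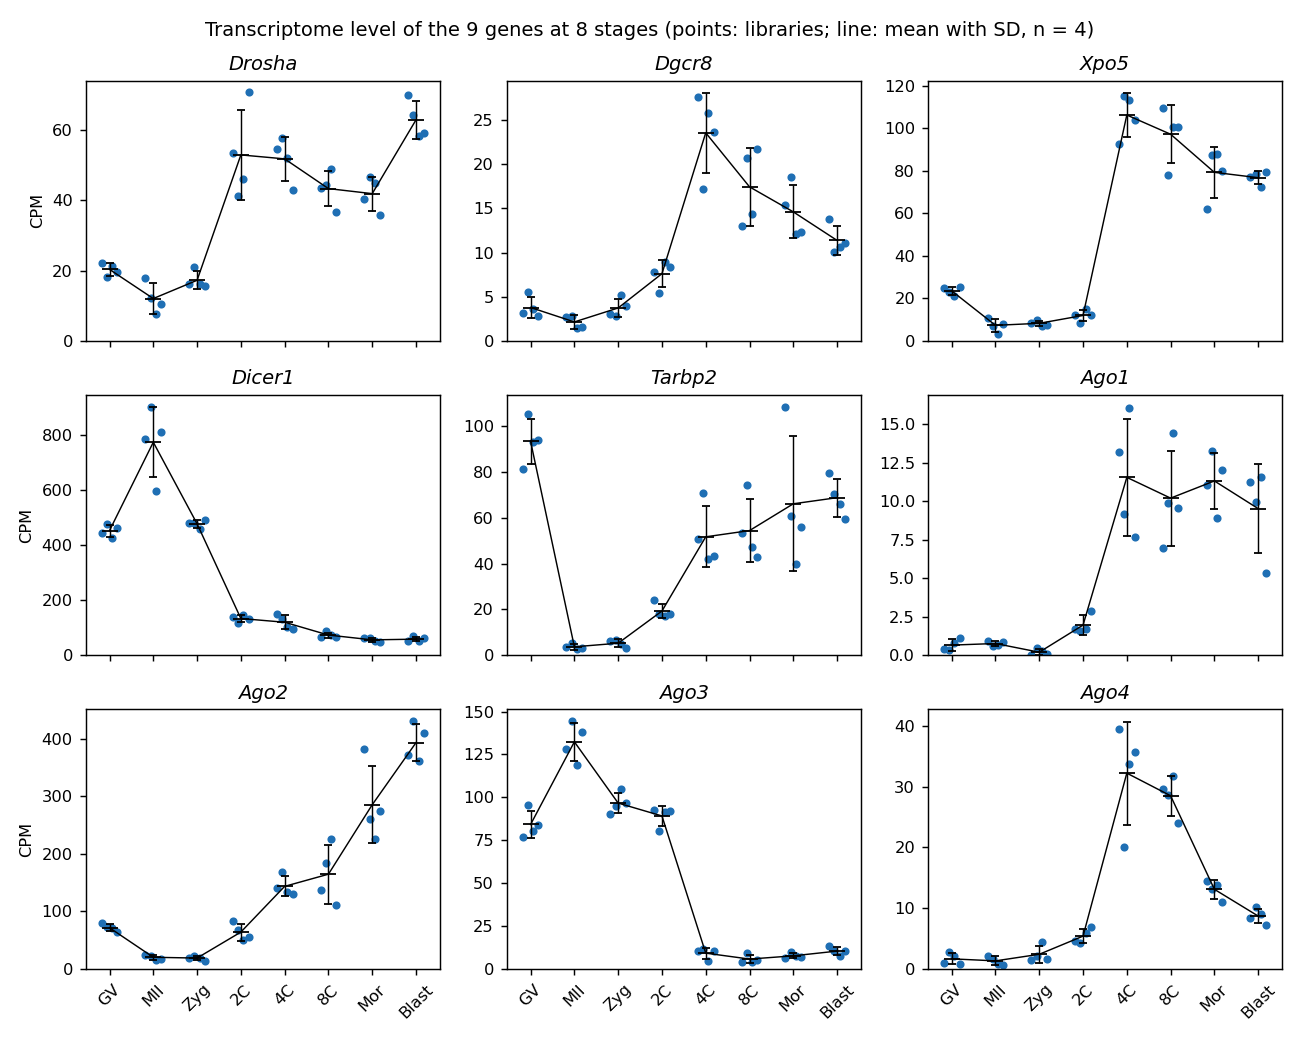
Transcriptome level in CPM (linear axes, each with its own range) of the 9 genes at 8 stages; points are libraries, the line joins the means and the bars are the SD (n = 4). Dicer1 and Ago3 are highest in MII oocytes, and the other 7 genes have their highest mean in GV oocytes (Tarbp2), 4C embryos (Dgcr8, Xpo5, Ago1, Ago4) or blastocysts (Drosha, Ago2).

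Drosha, the nuclease of the Microprocessor, stood at 16.1, 21, 16.3 and 15.6 CPM in the 4 zygote libraries and at 53.4, 41.4, 46.2 and 70.8 in the 2C libraries. The groups did not overlap, and Drosha rose by 1.54 on the log2 scale (SE 0.181, limma adjusted p 4.01e-09). From the 2C embryo on its means lay between 41.9 and 62.9 CPM, and in the order of the 8 levels only the step from the morula down to the GV oocyte separated neighbours without overlap. Dgcr8, its partner, was low in oocytes, at 1.41 to 2.84 CPM in MII oocytes. It stood at 7.76, 5.44, 8.88 and 8.32 CPM in 2C embryos and at 27.6, 17.2, 25.8 and 23.6 in 4C embryos, again without overlap. The change was 1.51 (SE 0.225, adjusted p 1.95e-07). From zygote to 2C Dgcr8 changed by 0.87 (SE 0.225, adjusted p 0.00116), under the size required. Without the libraries lettered C the change was 1.01 (adjusted p 0.00117), and without 2C library F it was 1.01 (adjusted p 0.00054). Annotated exons of Dgcr8 share 825 bases with those of Trmt2a on the other strand, and whether strand was used in counting is not given in the sources used here.

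Xpo5, which carries precursors out of the nucleus, fell during maturation, from 24.7, 23.0, 20.9 and 25.3 CPM in GV oocytes to 10.9, 7.14, 3.28 and 7.82 in MII oocytes. This change was -1.65 (SE 0.201, limma adjusted p 7.79e-09) and -0.94 after quantile normalization, which put it under the size required. Its rise came from 2C to 4C, from 12.1, 8.58, 14.8 and 12.2 CPM to 92.6, 114.9, 113.4 and 103.7. All 4C libraries lay above every 2C library, and the change of 3.07 (SE 0.201, adjusted p 3.68e-16) was the largest rise among the 63. The level held afterwards, with means of 76.7 to 97.1 CPM in 8C embryos, morulae and blastocysts whose values overlap from one neighbour to the next.

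Dicer1 was the most abundant of the 9 in GV and MII oocytes and zygotes per length of exon. Its level per kb of annotated exon was 46.3 ± 7.67 CPM per kb (SD, n = 4) in MII oocytes. The 4 MII libraries stood at 786, 903, 597 and 814 CPM, all above those of the GV oocytes (426 to 477) and of the zygotes (459 to 492). The change from GV to MII was 0.76 (SE 0.141, limma adjusted p 1.82e-05) and that from MII to zygote -0.68 (adjusted p 0.000282), both under the size required, though edgeR on reads called the first. Between zygote and 2C embryo Dicer1 fell by 1.84 on the log2 scale (SE 0.141, adjusted p 1.1e-13), to 116 to 145 CPM. The later means went from 119.2 ± 25.7 in 4C embryos to 72.5 ± 9.0 in 8C embryos and 55.0 ± 6.86 in morulae.

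Tarbp2, the partner of Dicer1, showed the largest change among the 63. The GV libraries stood at 81.2, 105.3, 93.2 and 93.9 CPM and the MII libraries at 3.29, 5.41, 2.58 and 3.01. Tarbp2 fell by 4.40 on the log2 scale (SE 0.236, limma adjusted p 4.39e-18). Zygotes overlapped with MII oocytes, at 2.89 to 6.50 CPM. It rose again, by 1.75 from zygote to 2C (SE 0.236, adjusted p 7.27e-08) and by 1.36 from 2C to 4C (adjusted p 3.02e-06). The 2C libraries stood at 23.9, 17.8, 17.1 and 18.1 CPM and the 4C libraries at 50.6, 70.8, 42.1 and 43.2. In transcriptomes Dicer1 was thus highest where Tarbp2 was lowest, in MII oocytes.

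The 4 Argonautes changed places between the 2C and the 4C embryo. Ago3 fell from 92.8, 80.5, 91.4 and 92.1 CPM in 2C embryos to 10.4, 11.7, 4.66 and 10.5 in 4C embryos, a change of -3.19 (SE 0.207, limma adjusted p 2.91e-16). Before that it stood between 77.1 and 144.2 CPM in every library, and after it between 4.20 and 13.3. Ago4 rose from 4.56, 4.37, 5.92 and 6.85 CPM to 39.5, 20.0, 33.7 and 35.7, a change of 2.35 (SE 0.254, adjusted p 2.02e-10). Ago1 went from 1.67, 1.53, 1.69 and 2.87 CPM to 13.2, 9.19, 16.1 and 7.70, a change of 2.06 (SE 0.243, adjusted p 1.39e-09). None of these 3 pairs of groups overlapped.

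Ago1, Ago3 and Ago4 are neighbours on chromosome 4 and are read from the same strand, so the sequences before their starts are shown side by side for the members that changed in opposite directions at this step. Each run is the 250 bases before an annotated start, 5′ to 3′ on the strand of the gene, from RefSeq on build GRCm38.p6, with capitals on matches to GGGCGG or CCAAT on either strand.
Ago3, chr4:126429543-126429792, minus strand: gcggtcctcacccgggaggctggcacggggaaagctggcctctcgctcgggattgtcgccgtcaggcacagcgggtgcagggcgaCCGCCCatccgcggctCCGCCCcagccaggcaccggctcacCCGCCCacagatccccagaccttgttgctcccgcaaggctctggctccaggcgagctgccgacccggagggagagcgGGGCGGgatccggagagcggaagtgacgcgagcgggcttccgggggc
Ago1, chr4:126468632-126468881, minus strand: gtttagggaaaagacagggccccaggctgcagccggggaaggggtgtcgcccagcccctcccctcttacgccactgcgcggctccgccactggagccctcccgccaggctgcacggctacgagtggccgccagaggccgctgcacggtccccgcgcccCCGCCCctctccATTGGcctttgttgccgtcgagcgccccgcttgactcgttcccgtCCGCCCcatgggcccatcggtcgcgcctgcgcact
Ago4, chr4:126533459-126533708, minus strand: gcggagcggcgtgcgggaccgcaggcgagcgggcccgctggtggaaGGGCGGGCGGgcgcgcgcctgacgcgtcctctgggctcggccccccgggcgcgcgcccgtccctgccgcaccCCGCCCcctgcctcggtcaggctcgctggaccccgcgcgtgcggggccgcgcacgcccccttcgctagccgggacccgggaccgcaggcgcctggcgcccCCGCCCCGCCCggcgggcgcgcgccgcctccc
Ago1 has a second entry whose start lies 48 bases further on. GGGCGG was found 4 times before Ago3, 2 times before Ago1 and 5 times before Ago4, with overlapping matches counted, and at least once in 32.7% of 32851 RefSeq promoters of the same length. CCAAT was found once before Ago1 and in 33.8% of all promoters. TATAAA (12.4% of promoters) and CACGTG (6.02%), searched on both strands, gave no match in the windows of these 3 genes, which says only that these letters are not there. The windows hold 27, 26 and 46 CG pairs for Ago3, Ago1 and Ago4, against a median of 6. Of the 9 genes 8 had an entry; Ago2 is not shown.

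Ago2, the slicer, was called in transcriptomes at the same steps and in the same directions as Tarbp2. Ago2 fell from 79.6, 72.2, 71.4 and 63.9 CPM in GV oocytes to 25.2, 23.6, 16.1 and 17.3 in MII oocytes, a change of -1.77 (SE 0.19, limma adjusted p 4.32e-10). Zygotes overlapped with MII oocytes, at 14.7 to 23.5 CPM. Ago2 then rose by 1.68 to the 2C embryo (SE 0.19, adjusted p 1.6e-09), at 50.9 to 83.6 CPM, and by 1.17 to the 4C embryo (adjusted p 9.93e-07), at 130.5 to 168.8 CPM; the second change was 0.94 after quantile normalization, under the size required. From 8C to morula it changed by 0.81 (SE 0.19, adjusted p 0.00114), also under that size, and by 1.08 without replicate C (adjusted p 0.000422). The blastocyst mean, 392.8 ± 32.5 CPM (SD, n = 4), was its highest, with values that overlap those of the morula. Annotated exons of Ago2 share 219 bases with Chrac1 on the other strand.

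The remaining calls were on low levels. Ago1 went from 0, 0.427, 0.234 and 0.0556 CPM in zygotes to 1.53 to 2.87 in 2C embryos, a change of 1.31 (SE 0.243, limma adjusted p 1.85e-05) that was 0.66 after quantile normalization. Ago4 changed by 0.95 over the same step (adjusted p 0.00158), and by 1.20 without replicate C, 1.019 without 2C library E and 1.04 without 2C library F, each past the size required. From 8C to morula Ago4 fell by 1.062 (SE 0.254, adjusted p 0.00147), from 23.9 to 31.8 CPM in the 8C libraries to 10.97 to 14.43 in the morulae. Among its 8 levels the 4C and 8C embryos overlapped, and each of morula, blastocyst and 2C stood apart from the next one above it.

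Set per kb of exon, so that genes can be compared, the share of each Argonaute in their summed level changed over development. In GV oocytes Ago2 held 48.7% ± 3.92 (SD, n = 4) and Ago3 48.3% ± 3.35, which overlapped. In MII oocytes Ago3 held 82.1% ± 3.44 and Ago2 14.97% ± 2.44, and in zygotes 77.2% ± 3.46 and 18.1% ± 3.02. Ago3 was at 49.2% ± 4.19 in 2C embryos and at 3.34% ± 1.14 in 4C embryos, where Ago2 held 60.8% ± 7.44, Ago4 27.5% ± 6.99 and Ago1 8.40% ± 2.67. Ago2 went on to 84.0% ± 2.80 in morulae and 90.1% ± 1.82 in blastocysts. The summed level per kb went from 7.58 ± 0.618 CPM per kb in zygotes to 31.1 ± 2.22 in blastocysts. Lengths are those of merged exons in GENCODE vM21, and shares rest on them.

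**Figure D2:**
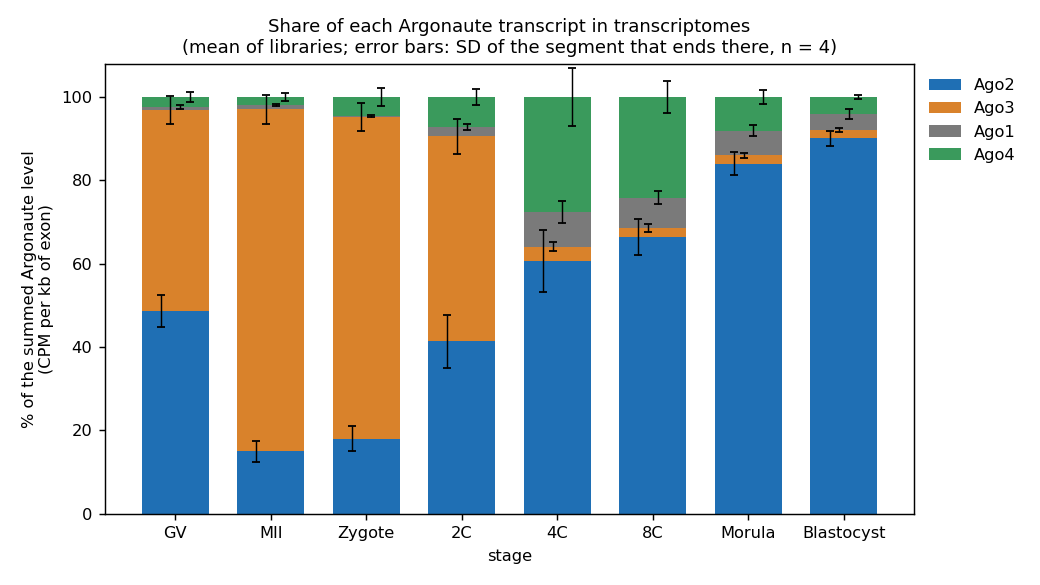
Share of Ago1, Ago2, Ago3 and Ago4 in their summed transcriptome level per kb of exon, in percent, as stacked bars by stage; error bars are the SD (n = 4) of the segment that ends there. Ago3 fills 82.1% of the bar in MII oocytes and 3.34% in 4C embryos, and Ago2 fills 90.1% in blastocysts.

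Dicer1 and Ago3 had courses like each other and unlike those of the other 7 genes. Over the 32 transcriptome libraries Pearson's r of log2(CPM + 1) was 0.87 between Dicer1 and Ago3, and ran from -0.65 to -0.95 between either of them and the other 7. The closest pair was Dgcr8 and Ago4 (r = 0.96). These r values describe libraries that share 8 stages and their depths. Across all 14642 genes tested, the genes most like each member by this r were Edrf1 and Brip1 for Dicer1 (0.98 each), Gpr137c and Pid1 for Ago3 (0.99 and 0.98), Coa6 and Avpi1 for Ago2 (0.98 each), Polr1b and Rpl9-ps4 for Ago1 (0.98 each), Oga and Tor1b for Ago4 (0.98 and 0.97), Nub1 and Stip1 for Xpo5 (0.99 and 0.98), Emc8 and Ppie for Tarbp2 (0.97 each), Fyttd1 and Akap8 for Dgcr8 (0.97 each) and Gusb and Dpagt1 for Drosha (0.94 each).

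Cofactors of the microRNA and siRNA pathways were followed as a list of 30 genes. From 2C to 4C, 15 of 30 rose and 9 fell in transcriptomes, with a median change of 1.04 against 0.02 for all genes. These 24 of 30 stand beside the 64.8% of all genes called at that step. Tsn, a subunit of the nuclease C3PO, fell from 145.1 ± 2.96 CPM (SD, n = 4) in zygotes to 20.4 ± 1.41 in 2C embryos (change -2.77, limma adjusted p 1.47e-22). It then rose to 400.7 ± 20.8 in 4C embryos (change 4.23, adjusted p 2.35e-28). Ipo8, an importin reported to bind Argonautes, fell from 222 ± 19.9 CPM in 2C embryos to 22.0 ± 5.32 in 4C embryos (change -3.30). Tnrc6a, which links Argonaute to deadenylation, rose from 10.9 ± 1.19 to 79.3 ± 8.05 (change 2.76). From GV to MII, where 34.5% of all genes were called, 7 of 30 rose and 5 fell, among them Trim71, from 228.8 ± 4.73 to 5.30 ± 0.838 CPM (change -5.199, adjusted p 2.15e-22). From zygote to 2C 7 rose and 2 fell (33.9% of all genes called), from 8C to morula 4 rose (11.9%), from morula to blastocyst 5 rose and 1 fell (26.8%) and from MII to zygote 1 rose (10.3%). The counts at GV to MII and zygote to 2C are near the share of all genes.

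The piRNA pathway, the other small RNA pathway of germ cells, had 18 of 20 listed genes in the table. From GV to MII 8 of 18 fell, where 34.5% of all genes were called in either direction and 3711 of 14642 were lower. Gtsf1 went from 892 ± 82.6 CPM (SD, n = 4) to 63.5 ± 5.21 (change -3.79, limma adjusted p 1.32e-20) and Mael from 212.5 ± 7.38 to 11.4 ± 2.45 (change -4.12). From 2C to 4C 9 of 18 fell and 4 rose, near the 64.8% of all genes called in either direction. Tdrd12 went from 111 ± 10.0 to 3.77 ± 0.472 CPM (change -4.56), and Piwil1, a PIWI-class Argonaute, from 11.7 ± 3.32 to 0.104 ± 0.0744 (change -3.49, adjusted p 6.88e-17). The median change at this step was -0.95 for the 18 genes and 0.02 for all genes.

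**Figure D3:**
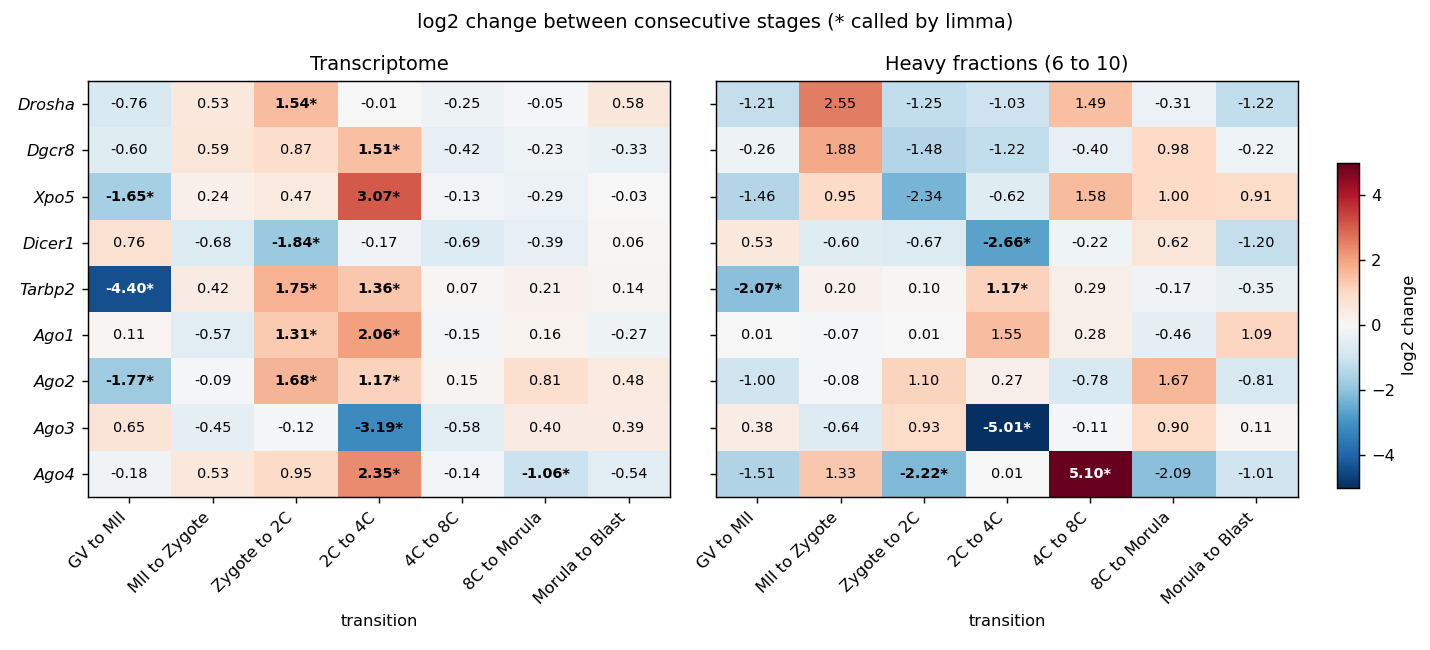
The log2 change of CPM + 1 between consecutive stages for the 9 genes, in transcriptomes (n = 4 per stage) and in the heavy fractions (n = 3 gradients per stage); red is higher and blue lower at the later stage, and an asterisk marks a change called by limma. Of 63 changes, 16 were called in transcriptomes and 6 in heavy fractions.

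The gradient comparison asks whether the same transcripts changed where ribosome-bound RNA sediments. The labels number the fractions and name none, and here the heavy side is fractions 6 to 10 and the light side fractions 1 to 5. Each gradient gave 1 value per side, the mean CPM of its 5 fractions. CPM is scaled to each fraction's own read total, and each fraction weighs the same in that mean. The values therefore do not give how much of a transcript lay on a side. Fraction libraries often held no read of these genes: 35.2% of 270 values (9 genes in 30 libraries) were 0 in 2C and in 4C embryos, 24.4% in 8C embryos, 8.89% in blastocysts and 16.7% to 23.3% at the other stages. In transcriptomes 1 of 288 values was 0. Ago1 had no read in 175 of 240 fraction libraries and Ago4 in 106, while Tarbp2 had reads in all 240.

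In the heavy fractions 6 of 63 changes were called, 2 higher and 4 lower. With 3 gradients per stage and wide spread between them, a heavy change that was not called is not shown to be absent. In order of development, the 7 transitions had 4.06%, 1.49%, 20.8%, 37.8%, 6.54%, 7.98% and 0.0757% of all genes called. The 6 were 1 of 9 from GV to MII, 1 from zygote to 2C, 3 from 2C to 4C and 1 from 4C to 8C.

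Ago3 in the heavy fractions stood at 140.8, 26.6 and 47.8 CPM in 2C gradients A, B and C and at 0.824, 0.640 and 0.908 in 4C gradients. The groups were far apart, and the change was -5.01 (SE 0.766, limma adjusted p 2.09e-05). It was called under each of the 12 alternatives run, at -2.28 to -6.04. Dicer1 went from 38.2, 61.2 and 85.6 CPM to 8.43, 12.7 and 5.50 over the same step, without overlap (change -2.66, SE 0.628, adjusted p 0.00192). This call was lost under 5 of 12 alternatives, with an adjusted p of 0.0516 without gradient C and 0.894 with the median over fractions. Tarbp2 went from 237.7, 446.3 and 180.9 to 651.3, 574.1 and 584.7 CPM (change 1.17, SE 0.361, adjusted p 0.0139), also without overlap. That call was lost under 6 of 12 alternatives, among them without gradient A (0.097), without gradient C (0.136) and with the median over fractions (0.186).

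Ago4 had almost no reads in the heavy fractions of 2 stages. The 15 heavy libraries held 3 reads of it in all in 2C embryos, of 177.9 M, and 3 in 4C embryos, of 175.1 M, while 16772 were counted in 8C embryos. Per gradient the heavy level was 4.92, 1.93 and 5.04 CPM in zygotes, 0, 0.0123 and 0.0217 in 2C embryos, 0, 0.0481 and 0 in 4C embryos and 7.66, 65.1 and 72.7 in 8C embryos. The rise from 4C to 8C was fitted as 5.10 (SE 0.745, limma adjusted p 0.000199) and the fall from zygote to 2C as -2.22 (SE 0.745, adjusted p 0.0379). Both sizes depend on the pseudocount, since 1 of the groups is near 0. The fall was no longer called without gradient A (adjusted p 0.112), B (0.0855) or C (0.2). The rise was called with each gradient left out in turn, and lost when only those groups entered the fit (0.161) and with the median over fractions (0.0541). Even in 8C embryos the reads sat in few libraries: fraction 8 had 38.2, 213.4 and 64.6 CPM in gradients A, B and C, and fraction 7 had 0 in all 3.

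The call from GV to MII was that of Tarbp2. Its heavy level went from 933.7, 973.7 and 855.4 CPM in GV gradients to 162.6, 173.0 and 368.1 in MII gradients (change -2.07, SE 0.361, limma adjusted p 0.00143). It missed the threshold without gradient A (0.0515), without gradient B (0.0729) and with edgeR on recovered reads (0.0794). Drosha (from 5.32 ± 2.13 to 34.7 ± 3.76 CPM from MII to zygote, SD, n = 3) and Ago2 (from 65.7 ± 94.8 to 94.3 ± 23.7 CPM from 8C to morula) were not called, and the second pair overlapped. The adjusted p of Drosha was 0.115, and 0.0178 in a fit of those groups only. Heavy Xpo5 passed from 2C to 4C (-3.39, adjusted p 0.0231) and from 4C to 8C (4.61, adjusted p 0.0145) without gradient C only, and heavy Ago4 from 8C to morula without gradient A (-3.12, adjusted p 0.0358). From zygote to 2C the main fit called no heavy change of Dicer1 (-0.67, adjusted p 0.517), Dgcr8 (0.362) or Xpo5 (0.213). With the mean of log2 values all were called lower: Dicer1 (-2.98, adjusted p 0.000974), Dgcr8 (-1.65, 0.0146) and Xpo5 (-2.06, 0.043). The median over fractions gave the same calls (adjusted p 0.0173, 0.000575 and 0.0158).

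Heavy and light sides were then compared within each stage. Over 8 stages 72 differences were tested and 3 were called, all of them lower on the heavy side. Among all genes the called share was 0.0725% in GV oocytes, 3.23% in MII oocytes, 3.01% in zygotes, 18.2% in 2C embryos, 16.3% in 4C embryos, 9.05% in 8C embryos, 5.81% in morulae and 2.74% in blastocysts. The 3 were Ago4 in 2C embryos and Ago3 in 4C and 8C embryos.

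Ago4 in 2C embryos had 12.0, 23.2 and 4.23 CPM on the light side against the 0, 0.0123 and 0.0217 given for the heavy side (fitted difference -3.54, SE 0.864, limma adjusted p 0.003). Its light reads lay in fractions 1 to 4. The highest mean was 33.6 CPM in fraction 1, from libraries of 0.337 to 0.667 M reads, and fraction 3 had 23.4, 17.8 and 14.4 CPM. The call was lost without gradient B (0.085), in a fit of those groups only (0.0625) and with the median over fractions (0.784). Ago3 in 4C embryos had 21.5, 4.15 and 16.3 CPM on the light side and at most 0.908 on the heavy side (difference -2.82, SE 0.714, adjusted p 0.0049). In 8C embryos it had 10.3, 20.3 and 11.7 against 0.421, 0.315 and 1.41 (difference -3.14, adjusted p 0.00234).

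Much of the light level of Ago3 came from fraction 1, which is shallow at these stages. In 4C embryos fraction 1 held 95.3, 16.5 and 70.7 CPM, from 17, 7 and 24 reads in libraries of 0.141 to 0.347 M. With the light side taken as fractions 2 to 5 the difference was -0.82 in 4C embryos (limma adjusted p 0.594) and -1.96 in 8C embryos (0.142). The 4C call was also lost without gradient A (0.0582) or C (0.0547), after quantile normalization (0.551) and with edgeR on recovered reads (0.588). It was lost too in a fit of those groups only (0.271), with the mean of log2 values (0.13) and with the median over fractions. The 8C call was also lost without gradient B (0.105), in a fit of those groups only (0.0793), with the median (0.362) and with edgeR (0.299). Drosha in 2C embryos, with 49.4, 51.9 and 106.3 CPM on the light side and 2.84, 23.0 and 35.7 on the heavy side, was not called in the fit without a block (difference -2.13, adjusted p 0.0861) and was called with the gradient as a block (adjusted p 0.0329). Leaving out 1 gradient brought 4 more past the threshold: Ago4 in 4C embryos (-3.05 without A, adjusted p 0.0293), Ago4 in 8C embryos (4.54 without A, adjusted p 0.00285), and Drosha (2.98, adjusted p 0.0463) and Dgcr8 (-3.33, adjusted p 0.0467) in 8C embryos without C.

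**Figure D4:**
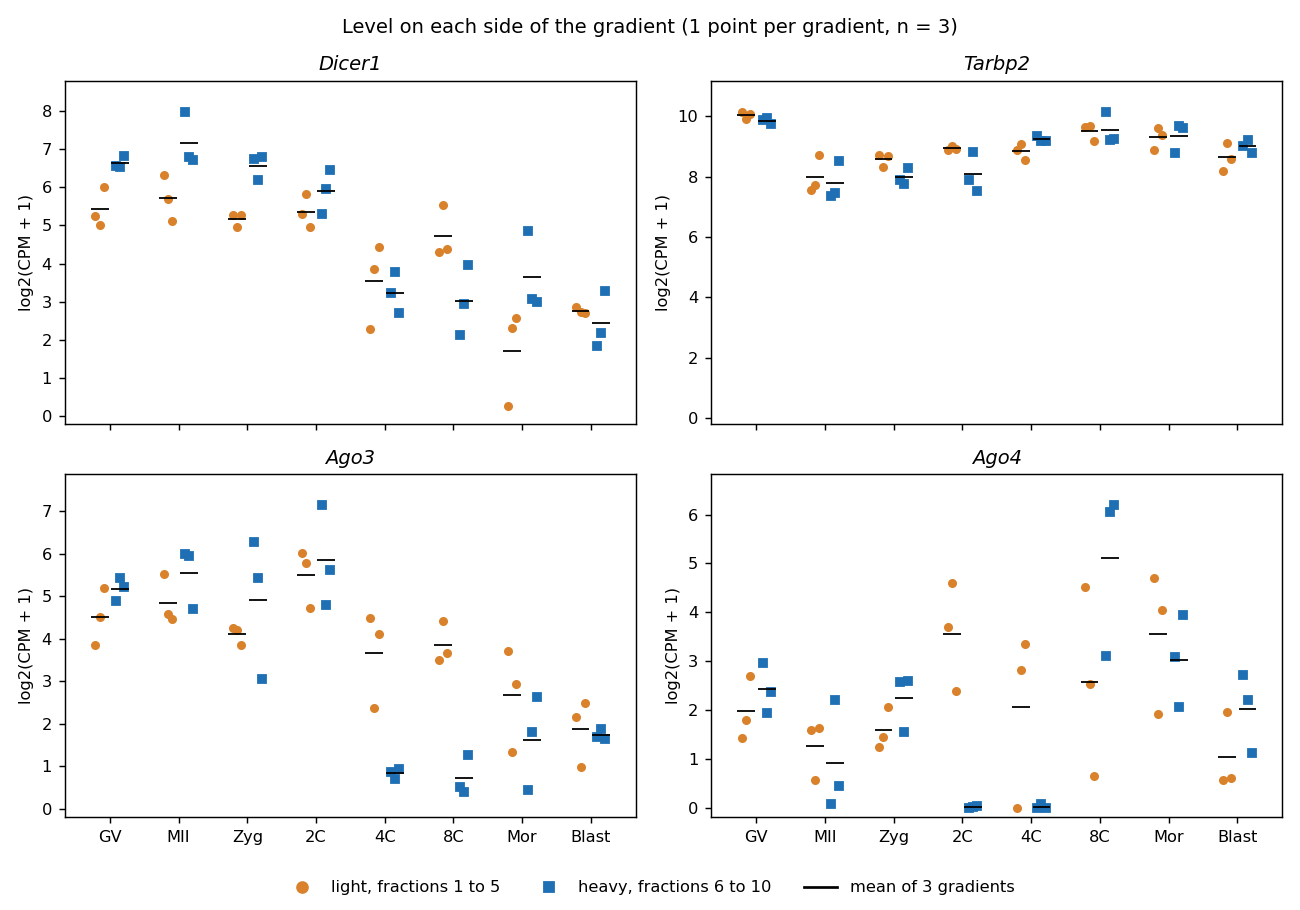
Level of Dicer1, Tarbp2, Ago3 and Ago4 on the light side (fractions 1 to 5) and the heavy side (fractions 6 to 10) of each gradient, as log2(CPM + 1), by stage; 1 point per gradient and a bar at the mean (n = 3). Heavy Ago4 lies at 0 to 0.0481 CPM in 2C and 4C embryos, and Tarbp2 lies high on both sides at all 8 stages.

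In GV oocytes, MII oocytes and zygotes Dicer1 had a higher mean CPM on the heavy side. The heavy mean was 69.9% ± 5.79, 73.4% ± 4.09 and 72.8% ± 2.10 of the sum of both side means (SD, n = 3). Such shares are of CPM and not of the amount of RNA. All 9 of these gradients were above 63%, and the differences of 1.21, 1.46 and 1.40 were not called (limma adjusted p 0.937, 0.253 and 0.287). In fits of only the compared groups, those of MII oocytes (0.0248) and zygotes (0.00676) were called. Its share then scattered, from 21.1% to 68.3% over 4C gradients. In morulae every gradient had the higher level on the heavy side, at 58.1% to 99.2%, and the difference of 1.91 was not called (limma adjusted p 0.0562). It was called with a pseudocount of 0.1 (0.0354), without the filter on low values (0.0466) and after quantile normalization (0.0258). Fractions 7 to 10 against 1 to 4 (0.0256) and light fractions 2 to 5 (0.017) also gave a call, and the other alternatives did not. Dgcr8 in zygotes had 81.1%, 79.1% and 73.9% on the heavy side (adjusted p 0.428, and 0.0258 in a fit of those groups only). Tarbp2 kept to the middle, with stage means of 35.8% to 56.9%.

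The change of the heavy against light difference from one stage to the next was tested as a contrast of its own. Of 63 shifts 4 were called. The 7 transitions had, in order, 0.185%, 0.0198%, 4.65%, 11.7%, 2.47%, 0.534% and 0.0198% of all genes called. This contrast was added after the data were seen. The difference of Ago4 fell from zygote to 2C (-4.19, SE 1.222, limma adjusted p 0.0383) and rose from 4C to 8C (4.59, SE 1.222, adjusted p 0.0323). That of Ago3 fell from 2C to 4C (-3.16, SE 1.01, adjusted p 0.0344). That of Dicer1 rose from 8C to morula (3.62, SE 0.869, adjusted p 0.0387). In 8C embryos Dicer1 had light levels of 18.6, 45.0 and 19.7 CPM and heavy levels of 3.40, 6.70 and 14.7. In morulae its light levels were 0.215, 3.96 and 4.98 CPM and its heavy levels 27.9, 7.39 and 6.91. Most of the heavy level in morulae was fraction 10, with 134.7, 20.8 and 34.2 CPM. These are changes in relative CPM, and movement of a transcript along the gradient was not tested. With the gradient as a block the adjusted p was 0.0693 and 0.0615 for the Ago4 shifts, 0.0352 for that of Ago3 and 0.0932 for that of Dicer1, and Tarbp2 from 2C to 4C was called (1.26, adjusted p 0.00975, against 0.0691 without the block).

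The change in the heavy fractions beyond that in the transcriptome was tested as an interaction. Of 63 such differences 10 were called, 2 higher and 8 lower. The share of all genes called was, in order of the 7 transitions, 8.22%, 2.28%, 27.5%, 31.8%, 13.7%, 6.45% and 2.2%. Of the 9 genes, 1 was called from GV to MII, 3 from zygote to 2C, 5 from 2C to 4C and 1 from 4C to 8C.

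From 2C to 4C the transcriptome levels of Xpo5, Dgcr8 and Ago4 rose, and no rise was called in their heavy levels. Heavy Xpo5 was 28.3, 2.95 and 0 CPM in 2C gradients and 0, 0.0571 and 29.0 in 4C gradients, groups that overlap (interaction -3.69, SE 1.113, limma adjusted p 0.00877). Heavy Dgcr8 was 0.0555, 20.8 and 14.6 and then 1.42, 0.144 and 9.19 CPM (interaction -2.73, adjusted p 0.0213). The interaction of Dicer1 was -2.48 (adjusted p 0.000181), with a transcriptome change of -0.17, and it was lost after quantile normalization (-0.97, adjusted p 0.152) and with the mean of log2 values (-1.11, 0.127). That of Ago4 was -2.34 (adjusted p 0.00802), which holds the transcriptome rise alone: both heavy groups were at the floor of 3 reads, so no heavy change could be measured. Xpo5 lost its call without replicate A (-1.63, adjusted p 0.324) or B (-3.01, 0.0895), left out of gradients and transcriptomes alike. Dgcr8 lost its call without replicate B (-1.36, 0.36) or D (0.0512). Ago3 was at -1.82 (adjusted p 0.0328), which lost its call without replicate A (0.188) or D (0.0869) and took the other sign after quantile normalization (0.86) and with the mean of log2 values (0.23).

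From zygote to 2C the median interaction of all genes was -0.89, and 0.04 after quantile normalization. Of the 4177 genes called at this step in the main fit, 3938 were lower. The interaction was -2.79 for Drosha (SE 0.665, limma adjusted p 0.00124), whose heavy level went from 33.9, 31.5 and 38.8 CPM to 2.84, 23.0 and 35.7 as its transcriptome level rose. It was -3.17 for Ago4 (adjusted p 0.000498; 0.168 after quantile normalization) and -1.65 for Tarbp2 (adjusted p 0.00399; 0.0691 without replicate C and 0.0627 after quantile normalization). From GV to MII Tarbp2 was at 2.33 (SE 0.444, adjusted p 0.000183), since its heavy level fell less than its transcriptome level, and from 4C to 8C Ago4 was at 5.23 (SE 0.697, adjusted p 3.93e-07). Under each of the 10 alternatives run, 4 calls were kept: Tarbp2 from GV to MII, Drosha from zygote to 2C, and Ago4 from 2C to 4C and from 4C to 8C. The first of the Ago4 calls says nothing on its heavy level, and the size of the second depends on the pseudocount. Leaving out 1 replicate letter brought 9 others past the threshold. From zygote to 2C these were Dicer1 without A (1.56, adjusted p 0.00739), Xpo5 without A (-3.87, 0.0193) and Dgcr8 without B (-3.18, 0.0298) or C (-3.04, 0.00933). From 2C to 4C they were Drosha without A (-1.86, 0.02) and Ago1 without C (-1.90, 0.0316), and from 4C to 8C Drosha without A (2.10, 0.0267) or C (2.22, 0.0229) and Xpo5 without C (4.73, 2.74e-05). Dicer1 passed without C from 8C to morula (1.79, 0.0361) and from morula to blastocyst (-2.04, 0.0419).

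Tarbp2 stood apart in the fractions. Averaged over 10 fractions it reached 990 CPM in GV oocytes, 253.5 in MII oocytes, 317.4 in zygotes and 388.2 to 753.9 from the 2C embryo to the blastocyst, against transcriptome means of 93.4, 3.57, 5.14 and 19.2 to 68.8. The log2 ratio of fraction mean to transcriptome mean (each + 1) was 2.74 to 5.80, within the top 4.0% of all 14642 genes at every stage (percentiles 96.0 to 99.6). Its lowest side mean in any gradient was 162.6 CPM and it was detected in all 240 fraction libraries. No other gene has exons that overlap those of Tarbp2 in the annotation used.

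Dicer1 lay on the other side, with log2 ratios of -3.35 to -1.35 and percentiles of 2.61 to 23.4. In MII oocytes it had 774.7 CPM in transcriptomes and 104.5 over fractions. Of the other 7 genes, Ago1 was below 0 at all 8 stages, and the ratio changed sign between stages for Drosha, Dgcr8, Xpo5, Ago2, Ago3 and Ago4. Across genes, Spearman's rho between exon length and this ratio was -0.06 to -0.39 by stage; the exons of Dicer1 cover 16.75 kb and those of Tarbp2 4.549 kb. The part of length and of library preparation in these ratios was not tested.

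**Figure D5:**
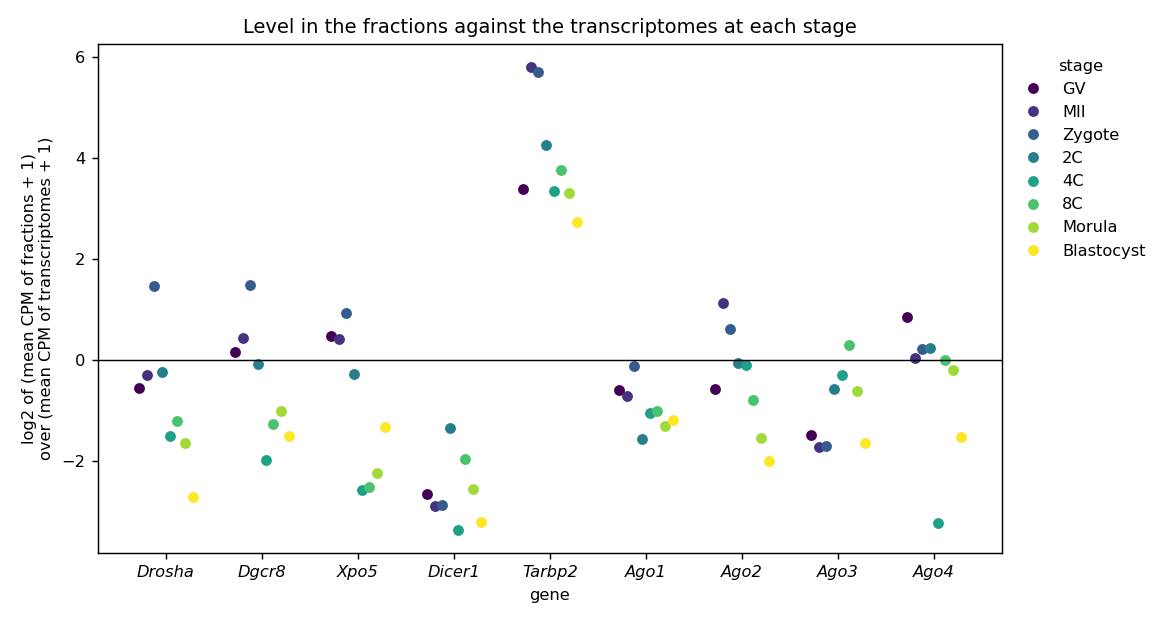
Log2 ratio of the mean CPM (+ 1) over the 30 fraction libraries to that over the 4 transcriptomes of a stage, for each gene (x axis) and stage (color); the line marks equal levels. Tarbp2 lies at 2.74 to 5.80 at all 8 stages and Dicer1 at -3.35 to -1.35.

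The cofactor and piRNA lists were counted in the gradients as well. In the heavy fractions 9 of 29 tested cofactors fell and 3 rose from 2C to 4C, near the 37.8% of all genes called, with a median change of -0.87 against -0.06 for all genes. Among them Tent2, a non-canonical poly(A) polymerase, went from 153 ± 95.2 CPM (SD, n = 3) to 0.0742 ± 0.0499 (change -6.86, limma adjusted p 8.78e-06), and Tnrc6b from 93.6 ± 62.0 to 0.242 ± 0.205 (change -5.92). From zygote to 2C 4 fell and 1 rose, near the 20.8% of all genes, with Adar, the RNA-editing deaminase, at 70.1 ± 24.8 and then 2.90 ± 4.56 CPM (change -4.79, adjusted p 0.0015). The interaction was lower for 15 of 30 cofactors and higher for 1 from 2C to 4C, where 31.8% of all genes were called. Within stages, Xrn1, the cytoplasmic 5′ to 3′ exonuclease, was lower on the heavy side in 4C embryos, 8C embryos, morulae and blastocysts; in morulae it had 105.4 ± 91.2 CPM on the light side and 3.28 ± 1.17 on the heavy side (difference -4.33, adjusted p 1.6e-05).

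Of 18 piRNA genes 6 fell and 0 rose in the heavy fractions from zygote to 2C. At that step 20.8% of all genes were called in either direction, and 2282 of 14524 were lower. From 2C to 4C 5 fell and 0 rose, where 37.8% of all genes were called in either direction and 3233 of 14524 were lower. Piwil1 had 150.5 ± 103.3 CPM (SD, n = 3) on the heavy side of 2C gradients and was at 0 in the heavy mean of all 3 4C gradients (fitted change -7.03, limma adjusted p 3.75e-09), and Mael went from 260.7 ± 253.1 CPM to 0 (fitted change -7.49); both sizes depend on the pseudocount. Within 4C embryos 4 of 18 were lower on the heavy side, Mael, Tdrd1, Mov10l1 and Tdrd5. Of all genes 16.3% were called there in either direction, and 1952 of 15172 were lower.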

How the data were processed

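Small RNA pathway genes were read from 1 deposited table of CPM values for 15854 symbols in 272 libraries, 32 transcriptomes and 240 gradient fractions. Per the submitters' processing notes, the authors used Trim Galore 0.6.7, FastQC, HISAT2 2.2.1, featureCounts 2.0.1, edgeR and the GRCm39 build. In 9 columns the deposited values are treated as a signal, because repeated symbols bring the column sum above what CPM allows. The 76 groups of symbols with identical values were reduced to 1 row each, which left 15771.

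Values in all 272 libraries were whole reads within 0.05 of a read (lowest share 100.0%). The 2C transcriptome columns carry other letters than the labels and were used as a group without replicate letters.

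limma 3.58.1 in R 4.3.3 tested log2(CPM + 1) with a moderated, trended variance; on this scale low genes show less change than they had. Testing required a CPM of 1 or more in 4 transcriptomes or 3 gradient means. Calls needed a Benjamini-Hochberg adjusted p under 0.05 and a log2 change of at least 1. edgeR 4.0.16 on recovered reads, without fraction 7 of 2C gradient B, was an alternative. The median over fractions was added as an alternative after the data were seen. Tables and figures used Python 3.11.15. The fits were tested on simulated data. Every member was named in each comparison. From the cofactor and piRNA lists at most 4 called genes per comparison, those with the largest change, could be named. Members and lists were chosen with earlier results of these data known.

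The fractions of 1 gradient share a lysate, so the gradient can be a block for heavy against light. Over 24 gradients both sides' deviations had r of 0.00695 to 0.256, with 12 over 0.1.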

Additional observations from a re-analysis of the deposited data

Results flagged for a closer look

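In 4 of 72 groups of 4 transcriptome libraries, a library stood far from the others. Chance gives about 1 group in 20, and this count is near that rate. Drosha had 1 zygote library at 21 CPM, with the others at 15.6 to 16.3. Among 2C embryos, Ago1 had 1 library at 2.87 CPM (others 1.53 to 1.69), Ago3 had 1 at 80.5 (others 91.4 to 92.8) and Tarbp2 had 1 at 23.9 (others 17.1 to 18.1).

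The difference between heavy and light fractions changed between consecutive stages, by limma's test of that change, in 4 cases. It was -4.19 for Ago4 from zygote to 2C and -3.16 for Ago3 from 2C to 4C. It was 4.59 for Ago4 from 4C to 8C and 3.62 for Dicer1 from 8C to morula. With the gradient as a block only that of Ago3 passed (adjusted p 0.0352), and the others did not (0.0693, 0.0615 and 0.0932).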

How the results depend on the processing

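The call was kept under every alternative run for 13 of 16 transcriptome changes, 1 of 6 heavy changes, none of 3 differences between the sides and 4 of 10 interactions. Calls numbered 14 to 19 for transcriptomes (main 16), 4 to 7 for heavy fractions (main 6) and 8 to 15 for interactions (main 10). Leaving out 1 replicate gave 16 to 19, 4 to 5 and 8 to 15. The 3 differences between sides became 5 with a pseudocount of 0.1, 5 in fits of only the compared groups, 5 with the mean of log2 values, 7 with fractions 7 to 10 against 1 to 4, and 5 with light fractions 2 to 5. Leaving out 1 gradient letter gave 1 to 4, with 1 without letter B. The split of calls also moved: between the sides 3 of 5 calls were higher on the heavy side with light fractions 2 to 5 and with only the groups compared (0 of 3 in the main fit). For interactions 3 of 8 were higher after quantile normalization and 4 of 12 with only the groups compared (2 of 10), and for heavy changes edgeR gave 3 of 6 and the median over fractions 1 of 7 (2 of 6). Ago3 from 2C to 4C reversed its interaction, to 0.863 after quantile normalization and 0.229 with the mean of log2 values; the cause was not tested. Quantile normalization moved the median change of all genes by 0.27 from GV to MII, -0.45 from zygote to 2C, 0.20 from 2C to 4C, 0.11 from 4C to 8C and -0.16 from morula to blastocyst.

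With the gradient letter as a replicate block, calls were 6 for heavy changes and 4 between the sides. Over the 5 transitions without the 2C stage the transcriptomes gave 4 calls with the block and 4 without. Letters did not pair stages: 0 of 21 same-letter heavy pairs and 2 of 20 transcriptome pairs had r over 0.1.

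edgeR on recovered reads (all values whole, lowest share 100.0%) called, in transcriptomes, 6840, 2197, 5871, 10232, 577, 2297 and 4597 of all genes over the 7 transitions; in heavy fractions 161, 50, 2158, 5997, 856, 636 and 6; and between the sides, from GV to blastocyst, 8, 165, 114, 2625, 2373, 651, 132 and 77. These differ by over 1.5 times from limma's 380 genes at 4C to 8C in transcriptomes, from its 589, 216, 1159 and 11 in heavy fractions at the GV, MII, 8C and morula steps, and from its 490, 456, 1373, 882 and 416 between the sides of MII oocytes, zygotes, 8C embryos, morulae and blastocysts. In fits of only the compared groups, counts over all genes moved by over 1.5 times. In transcriptomes 4C to 8C went from 380 to 147. In heavy fractions the steps from GV, MII, zygote, 2C, 4C and morula went from 589 to 2588, 216 to 766, 3023 to 1904, 5495 to 2446, 950 to 0 and 11 to 134. Between the sides, GV to blastocyst went from 11 to 285, 490 to 2204, 456 to 2092, 2758 to 188, 2468 to 0, 1373 to 252, 882 to 1610 and 416 to 2416. Interactions from GV, MII, 2C, 4C and morula went from 1246 to 3127, 346 to 1121, 4823 to 2123, 2085 to 380 and 333 to 1483. Quantile normalization did so between the sides of MII oocytes (754) and zygotes (731), for interactions from zygote to 2C (from 4177 to 2780) and for heavy changes from morula to blastocyst (20). Shallow fractions limit what can be seen, and a gene with no read in a fraction cannot be called absent. Deep fractions held zeros as well. Dicer1 had no read in morula fraction 7, in libraries of 35.4 to 42.8 M reads, and a mean of 63.2 CPM in fraction 10. The cause was not tested.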
